A study of Homo sapiens with 8 samples.

Results

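The genes described here are 9 members of the integrated stress response, taken by name from a table of 60286 genes: ATF4, DDIT3, TRIB3, ASNS, CHAC1, SESN2, PSAT1, PHGDH and VLDLR. The names were given by a list, drawn up with earlier results of these data known, and all 9 were found in the table. They were measured in 43693 single cells of neural cultures grown from H1 (NIH 0043), an established human embryonic stem cell line, as flat (2-D) or three-dimensional (3-D) cultures. The labels give dopamine, cocaine, morphine and no treatment as the conditions, and the series text asks what the cultures contain and how they respond to these agents.

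Each cell name carries a culture tag, which joins a word for the arrangement to one for the treatment and a replicate number, and all comparisons are between tags. All 46 tags derive from the same cell line, and neither a genetic change nor a culture age is given in the sources used here. Arrangement 2DMono held 6 tags, with 2 each of AcDop, AcMor and Vehic. Arrangement 3DMono had the same 6. Arrangement 2DCocu held 12 tags, with 4 each of AcCoc, AcMor and Vehic. Arrangement 3DFusi held 10, with 4 of AcCoc, 3 of AcMor and 3 of Vehic. The remaining 12 tags carry the letters Proto and no treatment. In 2D they were 2Fjo, 3Wu and 4Nic with 2 tags each, and in 3D they were 1For and 2Xia with 3 tags each. The abbreviations are printed as they stand in the cell names, because the labels do not define them, and no dose or time is stated. Tags with the same name apart from the number are treated as replicates. The protocol describes papain dissociation of 2 to 3 organoids together and does not mention flat cultures. Nothing says that tags came from separate cultures, so each p-value measures the spread between tags, which may be technical.

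The integrated stress response is a pathway in which any of 4 kinases phosphorylates the translation initiation factor eIF2. General protein synthesis then slows, while the messenger RNA of ATF4 is translated more. ATF4 is a transcription factor that raises genes for amino acid uptake and synthesis, for aminoacyl-tRNA synthetases and for feedback on the response. Because ATF4 is controlled mainly at translation, its RNA level does not report its protein. DDIT3 encodes CHOP, a transcription factor that acts with ATF4, and TRIB3 encodes a pseudokinase that restrains both. ASNS makes asparagine. PHGDH and PSAT1 catalyse consecutive steps of serine synthesis, a route that dividing progenitors and astrocytes use heavily. CHAC1 degrades glutathione, SESN2 restrains the growth regulator mTORC1, and VLDLR is a lipoprotein and reelin receptor whose RNA can rise in endoplasmic reticulum stress. SESN2 is also a target of p53.

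On GRCh38 in GENCODE v29 the 9 genes are annotated as protein-coding. ATF4 lies on chr22:39519695-39522685 (plus strand), DDIT3 on chr12:57516588-57521737 (minus strand) and TRIB3 on chr20:362835-397559 (plus strand). ASNS lies on chr7:97852118-97872542 (minus strand), CHAC1 on chr15:40952962-40956519 (plus strand) and SESN2 on chr1:28259527-28282491 (plus strand). PSAT1 lies on chr9:78297143-78330093 (plus strand), PHGDH on chr1:119648411-119744226 (plus strand) and VLDLR on chr9:2621834-2660053 (plus strand). ATF4 and its relatives bind as dimers to a composite site known as the C/EBP-ATF response element. Its letters TGATGNAA were searched on both strands of 14 RefSeq promoter windows (GRCh38.p14), which covered all 9 genes and ran from 250 bases before to 50 bases after each start. The letters were found in 2 of the 14 windows, those of ASNS and CHAC1, against 3.62% of 35116 windows of the same 300 bases over all genes. These stretches are shown because they are the letters through which ATF4 is known to act, with the match in capitals, 5′ to 3′ on the gene's strand. In ASNS the match begins 68 bases before the start (chr7:97872458-97872487, minus strand). In CHAC1 it begins 209 bases before the start and reads on the other strand (chr15:40953251-40953280, plus strand).
ASNS: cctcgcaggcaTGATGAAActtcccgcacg
CHAC1: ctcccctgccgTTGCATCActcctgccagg
Both stretches lie before the RefSeq start of their window but inside the GENCODE span of the gene, which begins further upstream. ASNS has a second RefSeq window, from another start, that does not hold the letters. A match is a description of the letters only. No binding was measured here, and the absence of these letters from the other windows says nothing about a factor acting elsewhere.

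The 46 tags held 317 to 1959 cells and 3624668 to 58777178 counts each, with a median of 12776 counts per cell. Levels are given in CPM, a gene's share of the counts of a tag on the counts-per-million scale. CPM is not divided by gene length, so levels are compared between tags and classes and not between genes. The 8 sublibraries, which are portions of 1 barcoded pool, differed little in the 9 genes: ATF4 ran from 24.1 to 25.6 CPM over them and DDIT3 from 5.73 to 7.37. Of the barcode combinations, 2393 occurred in more than 1 sublibrary, where they stood as separate cells. The deposited values are estimated counts, and the share of entries that were whole numbers (within 0.001) differed between the genes. It was 96.9% for ATF4 and 98.2% for CHAC1, but 46.8% for ASNS and 25.8% for DDIT3. Most entries of DDIT3 and ASNS were thus fractional, as an estimate gives where a read matches several annotated features, and their levels are less certain. Pseudogene copies of ATF4, ASNS and PSAT1 stand on rows of their own in the table, so reads that match both a gene and its copy may have been split. VLDLR has an antisense partner, and whether strand was used in counting is not stated. Whether counts from unspliced RNA, which holds introns, were added to those from spliced RNA is not stated either, so a CPM value may include both.

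In 3DMono compared with 2DMono, which carry the same treatments, 6 of the 9 genes were higher, 1 was lower and 2 did not pass the test. ATF4, DDIT3, CHAC1 and SESN2 rose, and so did the serine synthesis enzymes PSAT1 and PHGDH, while VLDLR fell. Differences were tested on counts summed over the cells of a tag with edgeR's quasi-likelihood test, treatment as a covariate and Benjamini-Hochberg adjustment over all genes, and called at an adjusted p under 0.05. The 7 of 9 called stand against 38.8% of the 20190 genes tested in the same fit (18% higher and 20.8% lower). The median log2 fold change of the 9 genes was 0.49, beside 0.03 over all genes. In sums over a whole tag, fewer cells of a type and less RNA per cell cannot be told apart.

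Of the transcription factors, DDIT3 had 2.11, 2.83 and 4.27 CPM (lowest, median and highest of 6 tags) in 2DMono. In 3DMono it had 4.502, 5.32 and 6.81 CPM, so every 3D tag was above every 2D tag. The log2 fold change of DDIT3 was 0.73 (SE 0.18, edgeR adjusted p = 0.00646). ATF4 lay at 10.5, 12.5 and 15.3 CPM in 2DMono and at 9.53, 25.3 and 28.6 in 3DMono. 5 of the 6 3D tags were above all 2D tags, and 1 tag (AcMor 2) was below all of them. The log2 fold change of ATF4 was 0.67 (SE 0.22, edgeR adjusted p = 0.0270). The call was lost without any of 4 single tags: 0.0943 was the edgeR adjusted p without 3DMono AcMor 1, 0.0604 without 2DMono AcDop 1, 0.0523 without 2DMono AcDop 2 and 0.0597 without 2DMono Vehic 2. The calls for DDIT3 and SESN2 stood in all 12 fits that left out 1 tag.

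TRIB3, the feedback pseudokinase, did not differ by the test in this pair. It lay at 2.45, 5.66 and 6.12 CPM in 2DMono and at 4.41, 5.17 and 7.86 in 3DMono (log2 fold change 0.03, SE 0.22, edgeR adjusted p = 0.921). SESN2 had 8.76, 10.4 and 12.2 CPM in 2DMono and 13.8, 16.7 and 22.0 in 3DMono, without overlap (log2 fold change 0.53, SE 0.13, edgeR adjusted p = 0.00658). CHAC1 had few counts in every tag, at 0.398, 0.773 and 0.980 CPM in 2DMono and 0.862, 1.69 and 3.02 in 3DMono. Its groups overlapped through 1 tag of 3DMono (Vehic 1), and its log2 fold change was 0.94 (SE 0.28, edgeR adjusted p = 0.0179). Without 3DMono AcMor 1 the adjusted p of CHAC1 was 0.0541 in edgeR.

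Among the amino acid enzymes, PSAT1 lay at 28.7, 39.2 and 42.9 CPM in 2DMono and at 47.3, 53.0 and 56.7 in 3DMono. PHGDH lay at 14.2, 17.4 and 22.7 CPM in 2DMono and at 22.98, 29.1 and 30.5 in 3DMono. Both genes separated the arrangements completely, as did DDIT3 and SESN2, and such a separation was found in 22.2% of all genes tested. Their log2 fold changes were modest, 0.31 for PSAT1 (SE 0.10, edgeR adjusted p = 0.0235) and 0.42 for PHGDH (SE 0.13, edgeR adjusted p = 0.0201). ASNS, at 6.88, 13.7 and 17.7 CPM in 2DMono and 16.5, 20.3 and 23.4 in 3DMono, overlapped and did not pass (log2 fold change 0.49, SE 0.20, edgeR adjusted p = 0.0598). VLDLR lay at 29.1, 36.0 and 43.5 CPM in 2DMono and 27.6, 33.1 and 36.9 in 3DMono, a fold change of -0.34 on the log2 scale (SE 0.12, edgeR adjusted p = 0.0344). Scaling by total counts without the TMM factors moved the median of all genes by 0.19 on the log2 scale and the share of calls that were higher from 46.3% to 67.9%. With that scaling VLDLR did not pass (edgeR adjusted p = 0.306) and ASNS did (0.0106). Leaving out single tags ended the call of PSAT1 in 3 fits, of PHGDH in 1 and of VLDLR in 7. The number of members called ranged from 4, without 2DMono AcDop 2 or 2DMono Vehic 2, to 7. Without cells called doublets 5 passed, beside 7042 of 19099 genes: PHGDH did not (edgeR adjusted p = 0.0514) and CHAC1 was not tested. With the Vehic tags alone no member passed, while 3248 of 22508 genes did. Limma, with or without a block on the tag number, called DDIT3, CHAC1, SESN2 and PHGDH and lost ATF4, PSAT1 and VLDLR (limma adjusted p = 0.0840, 0.0542 and 0.0582 without the block). Of 20190 genes limma called 6581 with the block and 7071 without it. The makeup of the tags differed too. Cycling-like cells held a mean of 3.91% of cells in 2DMono and 12.4% in 3DMono, progenitor or radial glia-like cells 0.261% and 14.6%, and astrocyte-like cells 32.2% and 0%. The part of the makeup in these whole-tag differences was not tested, and values within classes follow further on.

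**Figure D1:**
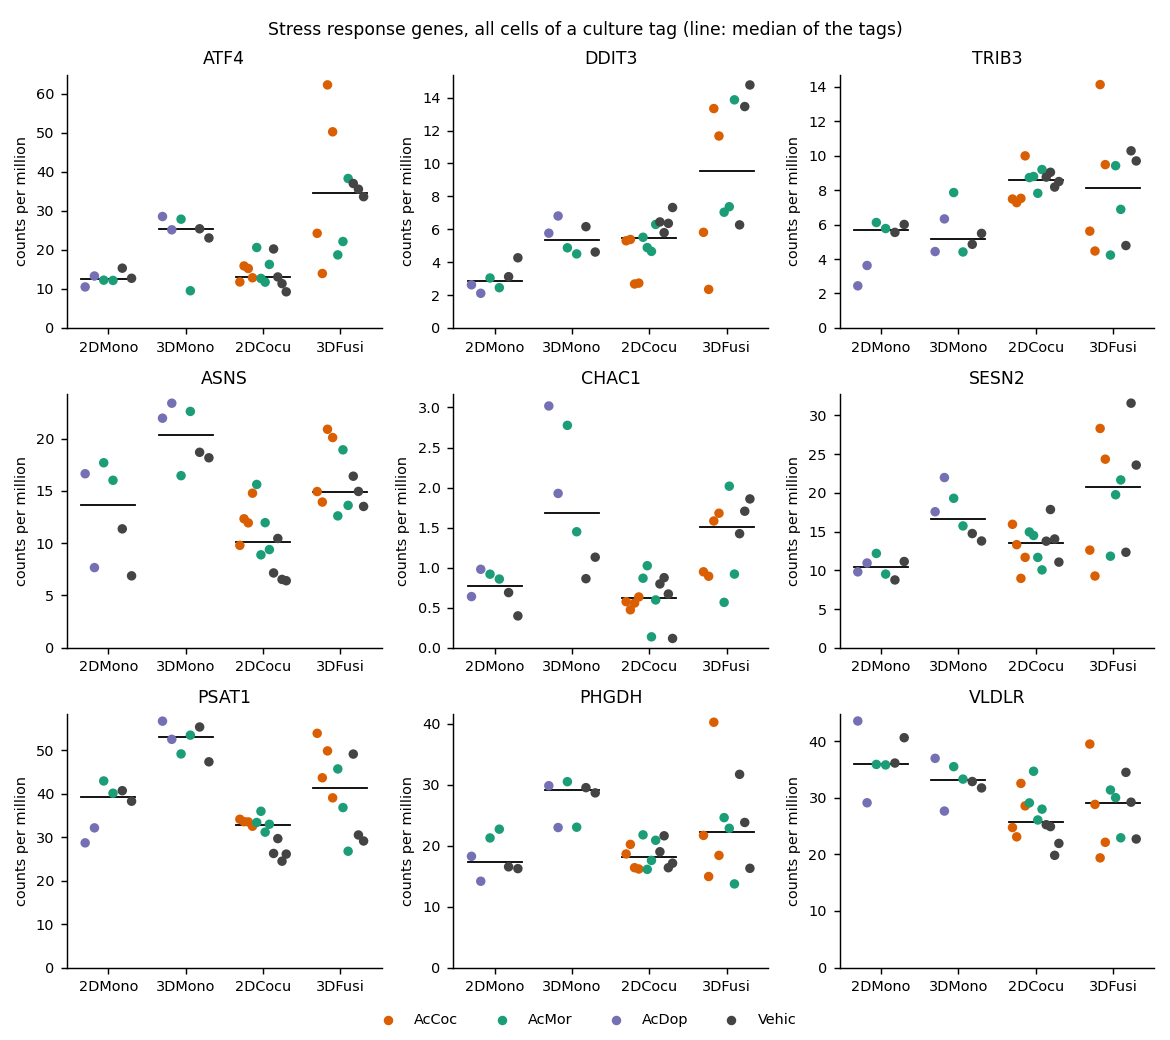
CPM of each gene in every tag of the 4 arrangements with treatments, each point 1 tag, coloured by treatment, with a line at the median of the tags. DDIT3, SESN2, PSAT1 and PHGDH in 3DMono lie above all tags of 2DMono, and the points of 3DFusi spread widely for ATF4, DDIT3, TRIB3 and SESN2.

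The other genes of the pathway went both ways in this pair. Of 75 pathway genes in 8 lists, 72 were tested, and 9 were higher and 18 lower in 3DMono, beside 18% and 20.8% of all genes, with a median log2 fold change of -0.06. PPP1R15A, the inducible subunit of the phosphatase that reverses eIF2 phosphorylation, rose from 4.59 to 8.92 CPM over the 2D tags to 11.1 to 20.8 over the 3D tags (log2 fold change 1.02, edgeR adjusted p = 0.00138). DDIT4, an mTORC1 inhibitor induced by stress, rose by 1.59 on the log2 scale (edgeR adjusted p = 0.00227), and the serine synthesis enzyme PSPH by 0.59 (0.00387). The amino acid transporter SLC7A5 fell by 1.62 (edgeR adjusted p = 7.4e-06) and SLC7A1 by 0.99 (1.1e-06). The one-carbon enzyme ALDH1L2 fell by 0.84, the tryptophanyl-tRNA synthetase WARS1 by 0.67 and the eIF2 kinase EIF2AK3 (PERK) by 0.65, each past the edgeR threshold and without overlap. In the list of endoplasmic reticulum chaperones and of the IRE1 and ATF6 branches, 1 of 16 genes was higher and 7 were lower.

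In 3DFusi compared with 2DCocu, 6 of the 9 genes were higher and none lower: ATF4, DDIT3, ASNS, CHAC1, SESN2 and PSAT1. The 6 of 9 called stand against 49.4% of the 20930 genes tested (26.7% higher and 22.7% lower). The median log2 fold change of the 9 was 0.48, beside 0.05 over all genes. ATF4 lay at 9.26, 13.0 and 20.6 CPM over the 12 tags of 2DCocu and at 14.0, 34.6 and 62.3 over the 10 of 3DFusi. The 2 lowest tags of 3DFusi lay within the range of 2DCocu, and the other 8 lay above it. Its log2 fold change was 1.14 (SE 0.20, edgeR adjusted p = 5.82e-05). DDIT3 lay at 2.67, 5.45 and 7.32 CPM in 2DCocu and at 2.34, 9.52 and 14.8 in 3DFusi, with a fold change of 0.80 on the log2 scale (SE 0.21, edgeR adjusted p = 0.00283). The lowest DDIT3 value of both arrangements was thus a 3DFusi tag, and so was the highest.

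ASNS lay at 6.41, 10.1 and 15.6 CPM in 2DCocu and at 12.6, 14.9 and 20.9 in 3DFusi (log2 fold change 0.56, SE 0.12, edgeR adjusted p = 0.000806). CHAC1 lay at 0.116, 0.616 and 1.02 CPM in 2DCocu and at 0.567, 1.503 and 2.02 in 3DFusi (log2 fold change 1.04, SE 0.25, edgeR adjusted p = 0.00130). SESN2 lay at 8.96, 13.5 and 17.9 CPM in 2DCocu and at 9.26, 20.7 and 31.6 in 3DFusi (log2 fold change 0.48, SE 0.16, edgeR adjusted p = 0.0154). All 3 overlapped between the arrangements, as did every member in this pair, where 6.74% of all genes did not overlap. PSAT1 was barely past the threshold (log2 fold change 0.30, SE 0.12, edgeR adjusted p = 0.0417). In 10 of the 22 fits without 1 tag it did not pass. TRIB3 (log2 fold change -0.19, SE 0.16), PHGDH (0.24, SE 0.16) and VLDLR (0.03, SE 0.14) did not pass. Without cells called doublets 3 members passed, ATF4, DDIT3 and ASNS, beside 9462 of 20049 genes. SESN2 had an edgeR adjusted p of 0.0771 there and CHAC1 was not tested. With the tag number as a block, limma called 3, ATF4, ASNS and CHAC1, beside 8524 of 20930 genes.

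The makeup of these tags differed as well. Astrocyte-like cells were 13.0% to 24.6% of cells in the tags of 2DCocu and 0% to 0.113% in 3DFusi. Progenitor or radial glia-like cells were 0% in 2DCocu and 0.670% to 19.4% in 3DFusi, GABAergic neuron-like cells 0% to 1.74% and 2.48% to 32.0%, and mesenchymal-like cells 1.98% to 8.15% and 3.90% to 51.6%. The part of these shares in the whole-tag differences was not tested.

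Of the 75 pathway genes, 74 were tested in this pair, and 19 were higher and 29 lower in 3DFusi, beside 26.7% and 22.7% of all genes. PPP1R15A again stood out, at 5.31 to 14.5 CPM in 2DCocu and 20.1 to 90.5 in 3DFusi (log2 fold change 1.78, edgeR adjusted p = 4.5e-07). CBS, which makes cystathionine from homocysteine and serine, fell by 1.14 on the log2 scale (edgeR adjusted p = 7.7e-07), SLC7A1 by 0.89 (2.8e-07) and the neutral amino acid transporter SLC1A4 by 0.75 (1.8e-06). None of the 16 chaperone and IRE1/ATF6 genes was higher and 13 were lower, with a median log2 fold change of -0.67. The median over all 9 members, 0.48, and that of the chaperone list thus had opposite signs in this pair. The difference between them was not tested.

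The 10 tags of 3DFusi differed among themselves by the number they carry, across all treatments. DDIT3 lay at 2.34 to 7.03 CPM in the 4 tags numbered 1 or 2 and at 7.37 to 14.8 in the 6 numbered 3 or 4. SESN2 lay at 9.26 to 12.6 CPM in the former and at 19.8 to 31.6 in the latter. TRIB3 lay at 4.23 to 5.62 and 6.88 to 14.1 CPM. The 3 genes therefore separated the numbers completely, and ATF4, at 14.0 to 37.0 and 22.1 to 62.3 CPM, did not. The share of all genes that separate the numbers was not counted, so whether 3 of 9 is many cannot be said. In the other direction, PSAT1 lay at 43.6 to 53.9 CPM in the tags numbered 1 or 2 and at 26.8 to 49.8 in the rest. What the numbers stand for is not given in the sources used here. The split was chosen after seeing the values and was not tested. The cell makeup separated the numbers too. Mesenchymal-like cells were 3.90% to 8.00% of cells in the tags numbered 1 or 2 and 15.3% to 51.6% in the rest, progenitor or radial glia-like cells 8.81% to 19.4% and 0.670% to 7.54%, and cycling-like cells 10.8% to 22.4% and 1.41% to 6.86%. Their part in the levels was not tested.

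**Figure D2:**
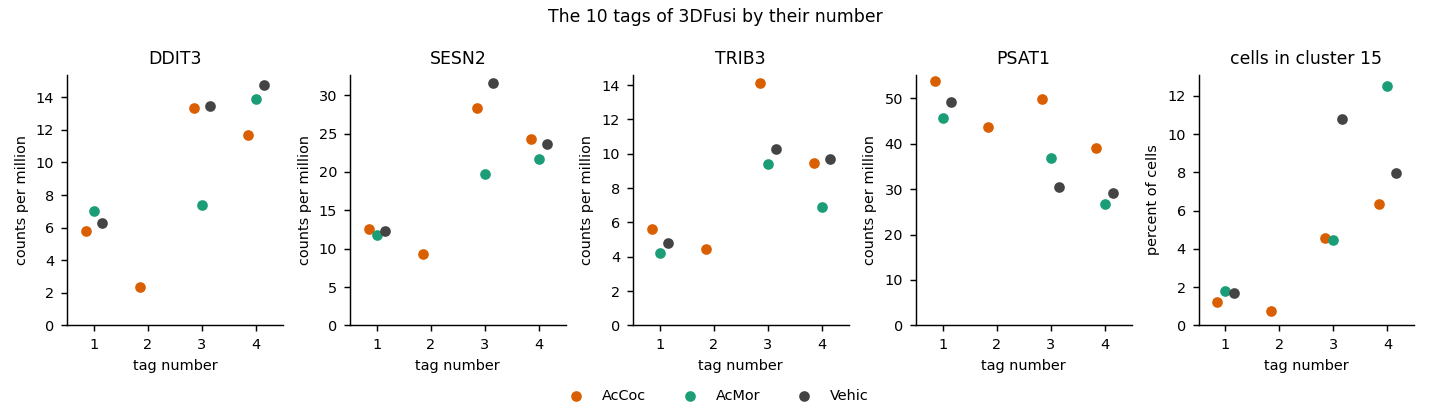
The 10 tags of 3DFusi by their number (horizontal axis), with CPM of DDIT3, SESN2, TRIB3 and PSAT1 and, at the right, the percent of cells in cluster 15. DDIT3, SESN2, TRIB3 and the cluster share are higher in the tags numbered 3 or 4 than in those numbered 1 or 2, under each treatment that has both.

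Compared with the same 12 tags of 2DCocu, the 2 sets of 3DFusi tags gave different members. With the tags numbered 1 and 2 alone, 6 members passed, against 47.1% of genes. ATF4 (log2 fold change 0.79), ASNS (0.53), PSAT1 (0.65), PHGDH (0.39) and VLDLR (0.38) were higher and TRIB3 (-0.77) was lower. In that fit DDIT3 had a fold change of 0.19 on the log2 scale (SE 0.21, edgeR adjusted p = 0.486) and SESN2 of -0.12 (SE 0.15, edgeR adjusted p = 0.522). With the tags numbered 3 and 4 alone, 5 members passed, against 54.6% of genes. They were ATF4 (1.33), DDIT3 (1.10), ASNS (0.59), CHAC1 (1.20) and SESN2 (0.78), while PSAT1 had a log2 fold change of 0.03 and TRIB3 of 0.10. ATF4 and ASNS were higher in both sets. Because the sets were formed after DDIT3, SESN2 and TRIB3 were seen to separate by number, their values in the 2 fits restate that observation and are no independent test. The sets share their 2DCocu tags, and the difference between them was not tested.

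Within the flat cultures, 2DCocu was compared with 2DMono over the AcMor and Vehic tags that both have, where 5 of the 8 members tested were called, against 30.3% of genes. DDIT3 was higher in 2DCocu (log2 fold change 0.81, SE 0.18, edgeR adjusted p = 0.00199), as was TRIB3 (0.45, SE 0.13, 0.0146). PSAT1 (-0.56, SE 0.10, edgeR adjusted p = 0.000264), VLDLR (-0.62, SE 0.11, 0.000347) and ASNS (-0.60, SE 0.17, 0.0131) were lower. DDIT3, TRIB3, PSAT1 and VLDLR did not overlap between the arrangements, beside 12.3% of all genes. DDIT3 lay at 2.45, 3.04, 3.12 and 4.27 CPM in the 4 tags of 2DMono and at 4.65 or above in the 8 of 2DCocu. ATF4 did not differ by the test (log2 fold change -0.01, SE 0.19, edgeR adjusted p = 0.987). CHAC1 was too low to be tested. The ASNS call was lost without 2DMono Vehic 1 (edgeR adjusted p = 0.141) or 2DMono AcMor 1 (0.0535). Total-count scaling moved the median of all genes by 0.12 on the log2 scale and the share of calls that were higher from 48.8% to 68.3%, and ASNS did not pass with it (edgeR adjusted p = 0.0546). Without the filter on low counts TRIB3 did not pass (0.0993).

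Of the 74 pathway genes tested, 21 were higher and 4 lower in 2DCocu, beside 14.8% and 15.5% of all genes, and the rest did not pass. The chaperone list had 8 higher and 0 lower of 16 and a median log2 fold change of 0.44. HSP90B1, the chaperone GRP94, lay at 149 to 307 CPM in 2DMono and 376 to 613 in 2DCocu (log2 fold change 1.11, edgeR adjusted p = 0.000445). DNAJC3, the PERK inhibitor P58IPK, rose by 0.69 and CRELD2 by 0.63. The transcription factor ATF5 rose by 1.28, the stress cytokine GDF15 by 1.24, the glycine transporter SLC6A9 by 1.07, the alanyl-tRNA synthetase AARS1 by 1.02 and the tRNA exporter XPOT by 0.57, all on the log2 scale and past the edgeR threshold. In the tags compared, astrocyte-like cells were 17.1% to 50.8% of cells in 2DMono and 13.8% to 24.6% in 2DCocu, GABAergic neuron-like cells 8.20% to 21.2% and 0% to 1.74%, and cells of unnamed clusters 18.7% to 29.8% and 54.4% to 66.8%. The part of these shares in the results was not tested.

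Between the 3D arrangements, 3DFusi compared with 3DMono over AcMor and Vehic tags, no member was called, against 1.56% of 23145 genes, and 4146 genes had an unadjusted p under 0.05. DESeq2 called 1 member, beside 1550 of 23145 genes. DDIT3 lay at 4.502, 4.61, 4.87 and 6.16 CPM in the 4 tags of 3DMono and at 6.27, 7.03, 7.37, 13.5, 13.9 and 14.8 in the 6 of 3DFusi. The groups did not overlap, as in 4.32% of genes, but the difference did not pass (log2 fold change 0.94, SE 0.26, edgeR adjusted p = 0.0940). Without the 3DFusi tag Vehic 1 it did (1.06, edgeR adjusted p = 0.0303). With the 3DFusi tags numbered 3 and 4 alone, 4 members passed, against 18% of genes. DDIT3 was higher (1.14, edgeR adjusted p = 0.00694), and PSAT1 (-0.87, 0.00161), PHGDH (-0.68, 0.0410) and VLDLR (-0.48, 0.0426) were lower. Those tags were AcMor 3, AcMor 4, Vehic 3 and Vehic 4. Neither treatment has a 3DFusi tag numbered 2, so the other set held AcMor 1 and Vehic 1 only. With these tags numbered 1 alone no member passed, against 0.188% of genes. DDIT3 had a log2 fold change of 0.43 there (edgeR adjusted p = 0.728), PSAT1 of -0.07, PHGDH of 0.04 and VLDLR of 0.02. The sets differ in size, so their counts of members called cannot be compared. As above, the sets were formed after DDIT3 was seen to separate by number, so these fits are no independent test.

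Cells were grouped into 28 clusters with the 9 genes and the pathway genes left out, and clusters were named from marker lists. Class names carry the ending -like, since markers alone give them, and 12 clusters with 36.5% of the cells stayed unnamed. Of the named classes, PSAT1 had its highest mean in progenitor or radial glia-like cells and PHGDH in cycling-like cells. PSAT1 had a mean of 93.1 ± 27.6 CPM in progenitor or radial glia-like cells (SD, n = 17 tags), 61.7 ± 22.5 in cycling-like cells (n = 22), 56.5 ± 13.7 in ciliated or ependymal-like cells (n = 16) and 42.9 ± 7.54 in astrocyte-like cells (n = 18). It was lowest in GABAergic neuron-like cells, at 19.9 ± 8.69 CPM (n = 31), and intermediate progenitor-like cells, at 26.9 ± 15.6 CPM (n = 13), did not stand apart from them beyond the spread. PHGDH had 42.5 ± 15.4 CPM in cycling-like cells. It had 31.2 ± 8.85 in ciliated or ependymal-like, 30.8 ± 13.6 in progenitor-like and 30.2 ± 14.5 in mesenchymal-like cells, and these did not stand apart beyond their spread. It had 20.9 ± 8.85 CPM in muscle-like cells (n = 4 tags), 20.1 ± 3.59 in astrocyte-like and 8.30 ± 4.78 in GABAergic neuron-like cells. Of all 28 clusters, the unnamed cluster 11 had the highest level of PHGDH, at 47.8 CPM over its pooled cells. Measured in that way, cluster 7, which is the cycling-like class, had 46.9 CPM. The classes come from different tags: the progenitor-like tags counted here are all 3D and the astrocyte-like ones all 2D, so the means over tags mix class with arrangement. Within one arrangement, PSAT1 had 107 ± 19.8 CPM in progenitor-like and 87.6 ± 14.7 in cycling-like cells of 3DMono (n = 6 tags each), 96.6 ± 26.5 and 62.9 ± 14.4 in 3DFusi (n = 8 each) and 56.6 ± 6.94 and 32.8 ± 1.37 in 3DProto (n = 3 each). The first 2 pairs of ranges overlapped and the third did not. These levels describe the classes and were not tested, since clusters were made from the same cells.

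Among the named classes, whose means again come from different tags, VLDLR was highest in excitatory neuron-like cells, at 41.7 ± 10.1 CPM (SD, n = 41 tags), then in GABAergic neuron-like cells at 30.6 ± 11.2, and lowest in intermediate progenitor-like cells at 14.2 ± 8.09. Of all 28 clusters the unnamed cluster 22 had the highest level of VLDLR, at 53.4 CPM over its pooled cells. Measured in that way, cluster 1 of the excitatory neuron-like class had 48.7 CPM. ASNS had nearly the same mean in ciliated or ependymal-like cells (22.6 ± 9.38 CPM, n = 16) and in excitatory neuron-like cells (22.3 ± 6.69, n = 41), and its lowest mean in astrocyte-like cells (4.92 ± 1.52, n = 18). ATF4 was lowest in excitatory neuron-like cells (14.3 ± 6.78 CPM) and highest in muscle-like (38.2 ± 7.94, n = 4) and mesenchymal-like cells (33.9 ± 13.8, n = 29), which overlapped. DDIT3 and SESN2 were lowest in excitatory neuron-like cells as well, at 2.19 ± 1.44 and 7.95 ± 3.84 CPM. Among the named classes both had their highest mean in ciliated or ependymal-like cells, at 13.7 ± 3.70 and 32.1 ± 11.4 CPM, and progenitor-like cells had 12.7 ± 7.81 CPM of DDIT3. The unnamed cluster 15, described further on, had higher means than these, at 27.9 ± 14.9 CPM of DDIT3 and 75.1 ± 27.9 of SESN2 (n = 21 tags). TRIB3 led in ciliated or ependymal-like (10.9 ± 6.47 CPM) and astrocyte-like cells (9.15 ± 3.40) and CHAC1 in progenitor-like cells (2.67 ± 2.31), with SDs too wide to order their neighbours. With cells thinned to 5000 counts, ATF4 was detected in 7.98% of 3181 astrocyte-like cells (exact binomial 95% interval 7.07 to 8.98) and in 7.64% of 6494 excitatory neuron-like cells (7.00 to 8.31). ASNS was detected in 1.98% (1.53 to 2.53) and 9.92% (9.20 to 10.7) of the same cells. Unthinned, the ASNS shares were 10.2% and 25.1%, and the intervals cover counting error only.

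**Figure D3:**
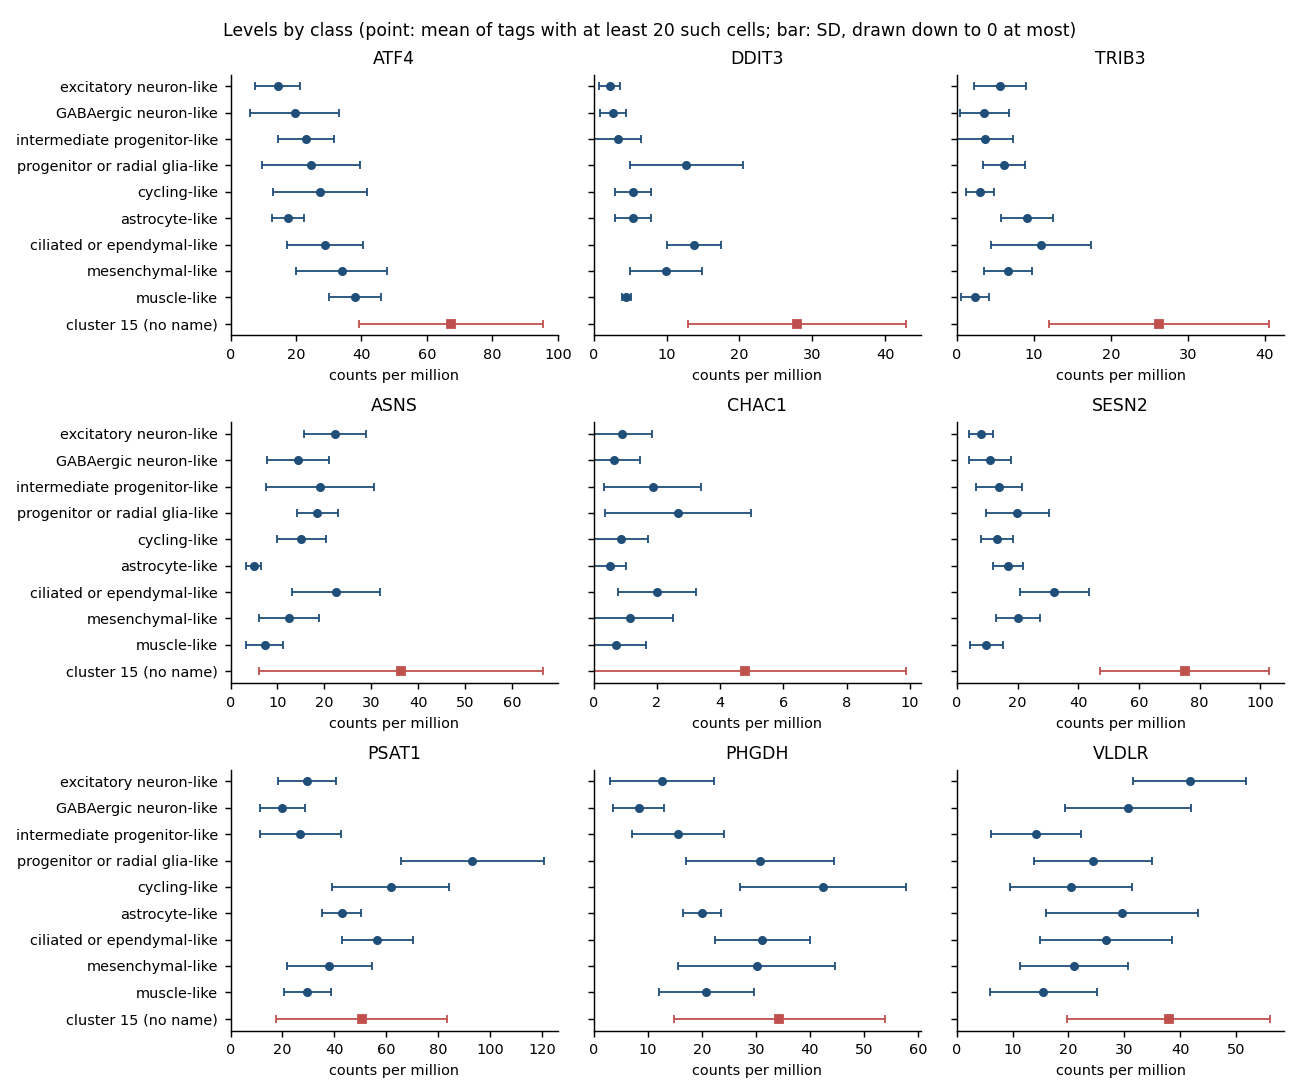
Mean CPM of each gene by class, over tags with at least 20 cells of it, with bars of 1 SD. The unnamed cluster 15 (square) has the highest mean of the rows shown for ATF4, DDIT3, TRIB3, ASNS, CHAC1 and SESN2, and progenitor or radial glia-like cells have the highest for PSAT1.

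Within excitatory neuron-like cells, the serine enzymes were lower in 3D, opposite in sign to the sums over whole tags, while ATF4 was higher in both. In 3DFusi compared with 2DCocu, ATF4, PSAT1 and PHGDH were called, against 44% of 10192 genes. PHGDH lay at 15.6, 23.7 and 39.6 CPM (lowest, median and highest) in the 12 tags of 2DCocu and at 2.24, 4.498 and 14.5 in the 10 of 3DFusi. Every 3D tag was below every 2D tag, and 6.2% of the genes tested had no overlap in this comparison. PHGDH fell by 1.97 on the log2 scale (SE 0.21, edgeR adjusted p = 9.39e-09). PSAT1 lay at 28.6, 38.2 and 54.5 CPM in 2DCocu and at 10.8, 20.6 and 38.6 in 3DFusi, a fold change of -0.92 on the log2 scale (SE 0.17, edgeR adjusted p = 4.49e-05). ATF4 lay at 4.497, 10.7 and 17.9 CPM in 2DCocu and at 9.53, 18.3 and 36.2 in 3DFusi (log2 fold change 0.84, SE 0.21, edgeR adjusted p = 0.00139). VLDLR had a fold change of 0.32 on the log2 scale (SE 0.14) and an edgeR adjusted p of 0.0536. DDIT3, TRIB3, CHAC1 and SESN2 were too low in these cells to be tested in this pair.

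In 3DMono compared with 2DMono, 4 members were called in excitatory neuron-like cells, against 30.3% of 12979 genes. ATF4 was higher, at 8.09, 10.5 and 11.7 CPM in 2DMono and 7.69, 18.003 and 21.5 in 3DMono (log2 fold change 0.70, SE 0.22, edgeR adjusted p = 0.0218). PHGDH lay at 8.36, 14.1 and 18.04 CPM in 2DMono and 5.52, 6.60 and 12.3 in 3DMono (log2 fold change -1.07, SE 0.25, edgeR adjusted p = 0.00260). ASNS was also lower (log2 fold change -0.58, SE 0.17, edgeR adjusted p = 0.0136), as was PSAT1 (-0.49, SE 0.15, 0.0198). The class came from different clusters on the 2 sides, which limits the comparison. It was cluster 2 in 99.9% of such cells of 2DMono and of 2DCocu, and cluster 1 in 99.7% of those of 3DMono and 98.5% of those of 3DFusi. With a coarser clustering (Leiden resolution 0.4 in place of 0.8), ASNS, PSAT1 and PHGDH of the Mono pair were no longer called, and PHGDH had a log2 fold change of -0.25 (edgeR adjusted p = 0.469). ATF4 was still called in both pairs with that clustering, and PSAT1 (-0.67) and PHGDH (-1.18) in 3DFusi compared with 2DCocu. TRIB3, tested with that clustering only, was lower in both pairs (-0.80 in the Mono pair and -1.06 in the other).

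Markers of other types moved with this comparison. Over the 8 astrocyte markers, the summed level in excitatory neuron-like cells ran from 29.8 to 77.3 CPM in 2DCocu and 13.0 to 39.5 in 3DFusi, and from 30.1 to 49.9 in 2DMono and 19.0 to 32.1 in 3DMono. None of the 8 was at 0 in any of these arrangements. The 8 progenitor or radial glia markers ran from 673 to 1201 CPM in 2DCocu, 539 to 1407 in 3DFusi, 1048 to 1398 in 2DMono and 1229 to 1599 in 3DMono. Larger moves were found in the GABAergic neuron markers, with a median summed level of 8.98 CPM in 2DCocu and 86.6 in 3DFusi, and of 12.8 in 2DMono and 58.2 in 3DMono. The 7 intermediate progenitor markers did not overlap in the first pair, at 160 to 353 CPM in 2DCocu and 114 to 156 in 3DFusi, and did in the second. The part of these markers in the differences of PHGDH, PSAT1 and ATF4 was not tested.

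**Figure D4:**
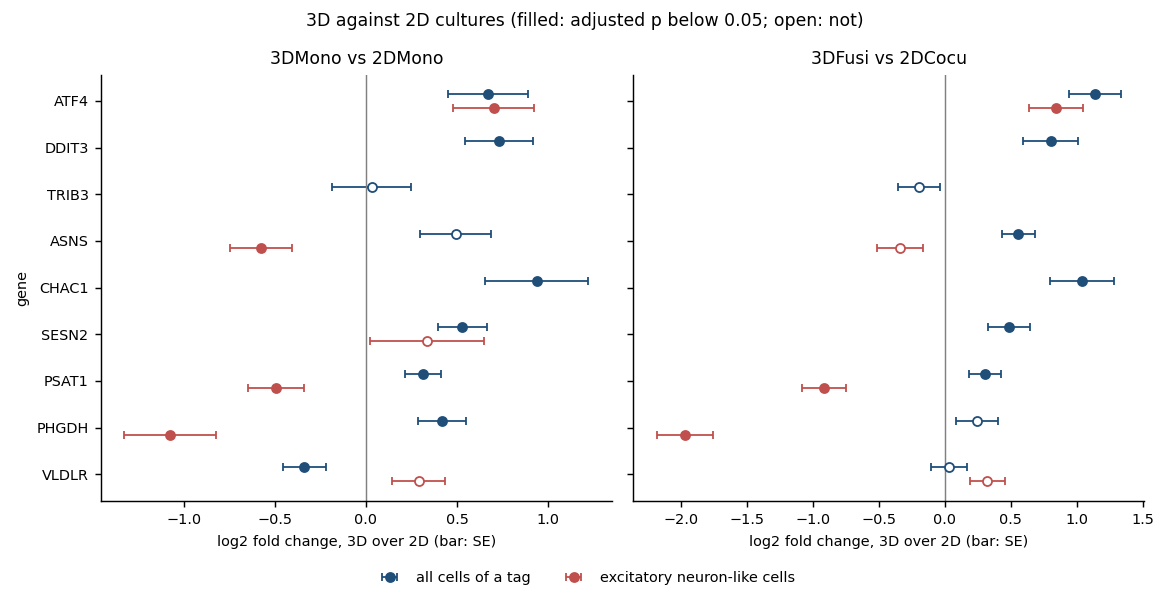
Log2 fold change of each gene in 3D over 2D with its SE, for 3DMono over 2DMono (left) and 3DFusi over 2DCocu (right), in all cells of a tag and in excitatory neuron-like cells, with filled points where the edgeR adjusted p was under 0.05. ATF4 lies to the right of 0 in all 4 sets, and PSAT1 and PHGDH lie to the right in whole tags and to the left in excitatory neuron-like cells.

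Other classes gave single calls. In GABAergic neuron-like cells PSAT1 was higher in 3DMono, at 17.2, 26.7 and 32.0 CPM compared with 10.04, 13.2 and 15.5 in 2DMono (log2 fold change 0.79, SE 0.23, edgeR adjusted p = 0.0181), where 22.7% of genes were called and 3 of the 9 members tested. This is the opposite direction to excitatory neuron-like cells of the same tags, and the difference between the classes was not tested. In cycling-like cells PSAT1 was also higher in 3DMono, at 71.8, 87.0 and 104 CPM over 6 tags, compared with 32.5, 42.0 and 49.0 in the 3 tags of 2DMono with at least 20 such cells (log2 fold change 1.01, SE 0.24, edgeR adjusted p = 0.0112, 9.83% of genes called). In mesenchymal-like cells ASNS was higher in 3DFusi, at 7.72, 13.9 and 19.6 CPM over 9 tags, compared with 2.46, 4.52 and 6.36 over 7 tags of 2DCocu (log2 fold change 1.22, SE 0.28, edgeR adjusted p = 0.00262, 36.1% of genes called). Here too the class came from different clusters, cluster 14 in 97.3% of such cells of 2DCocu and clusters 4 and 27 in 3DFusi. Markers of other types moved with it. The summed progenitor or radial glia markers were at 166 to 448 CPM in mesenchymal-like cells of 2DCocu and 475 to 945 in those of 3DFusi, and the summed astrocyte markers at 305 to 428 and 481 to 1430. The astrocyte marker AQP4 was at 0 in 2DCocu. Their part in the ASNS difference was not tested.

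Few members were called between treatments. AcCoc compared with Vehic in 2DCocu, 4 tags each, called 2 of the 8 members tested, against 6.09% of 21032 genes (3.6% higher and 2.49% lower). PSAT1 lay at 32.5, 33.5, 33.6 and 34.1 CPM under AcCoc and at 24.5, 26.1, 26.2 and 29.7 under Vehic, without overlap, beside 12.1% of genes. Its log2 fold change was 0.37 (SE 0.10, edgeR adjusted p = 0.0412). ASNS lay at 9.79, 11.9, 12.3 and 14.8 CPM under AcCoc and at 6.41, 6.53, 7.15 and 10.5 under Vehic, with only the highest Vehic tag reaching the AcCoc range (log2 fold change 0.71, SE 0.20, edgeR adjusted p = 0.0401). Both calls sit at the threshold. PSAT1 lost its call in all 8 fits that left out 1 of the tags and ASNS in 6 of them, with edgeR adjusted p values up to 0.129 and 0.124. No member passed with the tag number as a block (945 of 21032 genes did) or with total-count scaling (1025 of 21032). In 1 fit over the 4 arrangements no gene of 24803 passed, so that fit says nothing about the members in particular. Total-count scaling moved the share of calls that were higher from 59.1% to 42.8%. DDIT3 lay at 2.67, 2.73, 5.30 and 5.38 CPM under AcCoc and at 5.79, 6.36, 6.45 and 7.32 under Vehic, lower without overlap but not past the test (log2 fold change -0.62, SE 0.23, edgeR adjusted p = 0.119). The 2 low values were the tags numbered 3 and 4. The makeup moved with the treatment. Excitatory neuron-like cells were 23.7% to 30.3% of cells in the AcCoc tags and 3.85% to 9.05% in the Vehic tags, astrocyte-like cells 13.0% to 17.2% and 19.5% to 24.6%, and mitochondrial counts 3.84% to 4.29% and 1.87% to 3.06% of all counts. None of the 3 overlapped. Within excitatory neuron-like cells ASNS had a log2 fold change of 0.10 and PSAT1 of -0.04 (SE 0.29 and 0.24, edgeR adjusted p = 0.955 and 0.981). Within astrocyte-like cells the values were 0.31 and 0.50 (SE 0.35 and 0.17, edgeR adjusted p = 0.910 and 0.474). The part of the makeup in the whole-tag differences was not tested beyond these values. AARS1 alone of the 74 pathway genes tested was called under AcCoc, and it fell by 0.52 (edgeR adjusted p = 0.0241).

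AcMor compared with Vehic in 2DCocu called none of the 8 members tested, against 0.975% of 21032 genes (0.685% higher and 0.29% lower, and 3023 with an unadjusted p under 0.05). In DESeq2 1 member was called, beside 685 of 21032 genes. PSAT1 lay at 31.1, 33.0, 33.4 and 35.9 CPM under AcMor, again above all Vehic tags (log2 fold change 0.37, SE 0.10, edgeR adjusted p = 0.0866). VLDLR did not overlap either (0.41, SE 0.14, edgeR adjusted p = 0.164), and 8.59% of genes had no overlap. The AcCoc and AcMor comparisons share their Vehic tags. In the AcMor tags too, the makeup stood apart from Vehic, with 21.5% to 24.9% excitatory neuron-like and 13.8% to 17.0% astrocyte-like cells. Within excitatory neuron-like cells PSAT1 had a log2 fold change of 0.25 under AcMor (SE 0.24, edgeR adjusted p = 0.833), and within astrocyte-like cells of 0.10 (SE 0.17, 0.970). In 3DFusi, 2DMono and 3DMono, the 6 comparisons of AcCoc, AcMor or AcDop with Vehic called no member in edgeR or in DESeq2. Of all genes edgeR called 0%, and 177 to 1925 had an unadjusted p under 0.05. In 3DFusi the groups of every member overlapped, both for AcCoc (2.17% of genes without overlap) and for AcMor (5.28%). Within the 3 pairs of the same number, PSAT1 was higher under AcCoc than under Vehic in all 3 (53.9 and 49.1, 49.8 and 30.5, 39.0 and 29.1 CPM), and DDIT3 and CHAC1 were lower in all 3. Under AcMor, TRIB3, SESN2 and PHGDH were lower than under Vehic in all 3 pairs. One sign in all 3 pairs was found for 22% of genes under AcCoc and 25.5% under AcMor, so 3 of 9 members is near the share of all genes. With the number as a block edgeR called no member for either treatment, beside 0 of 23676 genes for both. With 2 tags a group, separation is common: it held for 5 of 8 members for AcMor in 2DMono (41.2% of genes) and 3 of 8 for AcDop (22.6%). In 3DMono it held for 3 of 9 members for AcDop (34.6% of genes) and 3 of 9 for AcMor (36.3%). CHAC1 was among both sets of 3, at 0.862 and 1.13 CPM under Vehic, 1.93 and 3.02 under AcDop and 1.45 and 2.78 under AcMor, with edgeR adjusted p values of 0.9997 and 0.5004. Over 7 tests of whether a difference itself differed between arrangements, no member passed. In 1 of the 7 it was the difference of 3D from 2D, compared between the Mono pair and the other pair. That test called 6.68% of 24803 genes and gave the smallest edgeR adjusted p of a member, 0.498 for VLDLR. The rest concerned treatments and called 0 to 3 of 24803 genes. The smallest edgeR adjusted p of a member in them was 0.917 for ASNS (AcCoc in 3DFusi and 2DCocu). Within classes of 2DCocu and 3DFusi no member was called for a treatment, where 0 to 64 genes were called in all. The nearest was PHGDH in excitatory neuron-like cells of 2DCocu under AcCoc (log2 fold change -0.997, SE 0.23, edgeR adjusted p = 0.0595), which passed with total-count scaling (0.0413).

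Among the tags with the letters Proto, the 3 flat protocols differed in PHGDH (edgeR adjusted p = 0.00616), PSAT1 (0.00664) and VLDLR (0.0327), against 39% of 25637 genes. PSAT1 lay at 52.9 and 52.5 CPM in the 2 tags of 2Fjo, at 34.7 and 35.6 in 3Wu and at 47.2 and 43.5 in 4Nic. PHGDH lay at 24.7 and 26.1 CPM in 2Fjo, at 13.2 and 13.9 in 3Wu and at 16.7 and 18.8 in 4Nic, so 3Wu was lowest for both enzymes. VLDLR was highest there instead, at 35.3 and 39.9 CPM, compared with 26.0 and 21.2 in 2Fjo and 22.3 and 24.1 in 4Nic. GABAergic neuron-like cells were 65.6% and 66.1% of cells in the tags of 3Wu and 1.87% to 3.71% in those of 2Fjo and 4Nic, and mesenchymal-like cells were 31.7% and 42.5% in 4Nic and 0.530% to 0.669% in the others. The part of this makeup in the differences was not tested. Of the pairs, 2Fjo differed from 3Wu in these 3 of the 9 genes, against 17% of all genes (log2 fold changes of 0.63, 0.96 and -0.62 for PSAT1, PHGDH and VLDLR). Between 3Wu and 4Nic 2 of 9 differed, PSAT1 (-0.67) and PHGDH (-0.70), against 34.2% of genes, and between 2Fjo and 4Nic 0 of 9, against 24.6%. Leaving out 1 of the 6 tags left 0 to 3 members called, with 0 when either tag of 3Wu was left out, that protocol then being down to 1 tag that is assumed to vary like the others.

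The 3D protocols 1For and 2Xia did not differ in any member by the test, nor in any gene (0% of 20599, 1602 with an unadjusted p under 0.05, and 15 genes but no member in DESeq2). All 9 log2 fold changes were above 0, none past the test, with a median of 0.45 beside 0.02 over all genes. The share of all genes above 0 was not counted, so whether 9 of 9 is many cannot be said. SESN2 lay at 23.7, 23.7 and 33.7 CPM in 1For and at 12.7, 15.7 and 18.8 in 2Xia, without overlap (log2 fold change 0.77, SE 0.23, edgeR adjusted p = 0.634). TRIB3 and ASNS did not overlap either, as was the case for 14.1% of genes. ATF4 ranged widely within both protocols, from 10.5 to 37.6 CPM in 1For and from 13.0 to 36.2 in 2Xia. The makeup differed between tags of one protocol. Mesenchymal-like cells were 29.8%, 44.4% and 0% of cells in the 1For tags numbered 1, 2 and 3, and 0%, 21.9% and 0% in those of 2Xia. The lowest ATF4 of each protocol was in a tag without mesenchymal-like cells, 1For 3 and 2Xia 1, where GABAergic neuron-like cells were 11.2% and 34.2% and cycling-like cells 14.8% and 18.4%. The other tag without them, 2Xia 3, had 25.9 CPM of ATF4, with 30.7% GABAergic neuron-like and 15.7% cycling-like cells. The part of this makeup in the levels was not tested.

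One unnamed cluster, number 15, held 1262 cells (2.89% of all) and occurred in all 46 tags, at 0.0902% to 12.5% of their cells. Over pooled cells it had the highest level of the 28 clusters for DDIT3, TRIB3, ASNS, CHAC1 and SESN2. For ATF4 it was second at 69.3 CPM, after cluster 27 of the mesenchymal-like class at 70.3. Cluster 27 was also second for TRIB3 and SESN2, at 10.5 and 31.7 CPM. None of these genes was used for clustering. In the 21 tags with at least 20 of its cells, SESN2 had 28.2, 76.5 and 156 CPM (lowest, median and highest) in the cluster and 11.8, 17.1 and 32.0 in all other cells of the same tags, and was higher in the cluster in 21 of 21. ATF4 had 8.46, 66.4 and 122 CPM in the cluster and 9.26, 29.7 and 60.0 outside it, higher in 20 of 21. DDIT3 had 0, 29.4 and 60.5 CPM in the cluster and 4.07, 6.30 and 12.6 outside it, higher in 19 of 21, and TRIB3 was likewise higher in 19 of 21. The rest were less regular: PSAT1 was higher in 12 of 21 tags, PHGDH and CHAC1 in 14, ASNS in 15 and VLDLR in 16. Higher in all 21 tags was thus 1 of the 9 members, SESN2, and 5.16% of 19992 genes.

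Some other stress genes were high in the same cells and some were not. The median log2 ratio of cluster to other cells (pseudocount 1 CPM) was at least 1 for 4 of the 9 members and for all 11 aminoacyl-tRNA synthetases, beside 8.95% of 19992 genes. STC2, a secreted target of ATF4, had a mean of 46.7 ± 31.4 CPM in the cluster and 9.95 ± 5.23 outside it (SD, n = 21 tags). EIF2AK3 had 217.5 ± 84.1 and 76.6 ± 20.4 CPM. HERPUD1, an endoplasmic reticulum degradation factor, had 86.1 ± 40.8 and 26.2 ± 8.05. The p53 targets CDKN1A (108 ± 35.0 and 20.02 ± 9.27 CPM) and MDM2 (552 ± 205 and 112 ± 21.0), named after their values were seen, were higher too. In the other lists a log2 ratio of at least 1 was reached by 5 of 11 eIF2, eIF2B and phosphatase genes, 4 of 6 transcription factors, 4 of 8 other ATF4 targets, 3 of 9 amino acid transporters, 3 of 16 chaperone and IRE1/ATF6 genes, 1 of 10 serine, one-carbon and amino acid synthesis genes and 1 of 4 eIF2 kinases. EIF2AK2 was higher in the cluster in 4 of 21 tags, CBS in 4, JDP2 in 5 and SESN3 in 3. STC2, EIF2AK3 and HERPUD1 were named after their values were seen. These levels are a description without a test, because the cells were grouped by expression.

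Cells of the cluster had fewer counts (median 10333, other cells 12866), a mitochondrial share of 0.384% compared with 2.70%, and a doublet share of 1.58% compared with 13.8%. What these differences contribute to the levels was not tested. The cluster held 2.04% of all counts, 9.82% of those of DDIT3, 9.28% of SESN2, 8.97% of CHAC1, 7.94% of TRIB3 and 5.64% of ATF4. Its share of cells was 0.0902% to 0.623% over the tags of 2DMono, 2.06% to 4.598% in 3DMono, 0.363% to 3.01% in 2DCocu and 0.732% to 12.5% in 3DFusi. In 3DFusi it was 0.732% to 1.81% in the tags numbered 1 or 2 and 4.47% to 12.5% in those numbered 3 or 4. Without its cells the 4 comparisons of arrangements called as many members as with them: 7, 6, 5 and 0. Beside these stood 7875 of 20099, 10302 of 20765, 6290 of 20760 and 520 of 22996 genes. Equal counts do not show that the fold changes stayed the same.

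Genes whose levels went most closely with each member were sought over all 46 tags, after the mean of each arrangement had been subtracted, among 13666 genes with a mean of at least 5 CPM. Spearman's rho is given as a description, without a test, and tags that share a library depth or makeup are not independent in it. DDIT3 went most closely with DNAJC3 (rho 0.84), and CCDC200 (0.80) was also among its nearest 3. ATF4 went with EEF2 (0.81), RPL10 (0.79) and DNAJB1 (0.76), which encode an elongation factor, a ribosomal protein and a heat shock cochaperone. Next to TRIB3 stood the glutamine transporter gene SLC1A5 (0.76) and FGF18 (0.75), and next to SESN2 PPP2R5B (0.81), BET1L (0.81) and EP400P1 (0.79). PSAT1 went with EMX2 (0.77), a transcription factor of the dorsal forebrain, with MAP2K6 (0.68) and with COA4 (0.67). ASNS went with UNC5D (0.76), a neuronal receptor gene, USF3 (0.72) and SLC17A6 (0.71), a glutamate transporter gene. The nearest genes were PPP1R18, PIGO and RBCK1 for CHAC1 (each 0.79), CFAP97 (0.69) and MANEA (0.68) for PHGDH, and RNF165 (0.71) and PCDHGA1 (0.68) for VLDLR. Between members the closest pairs were CHAC1 and SESN2 (0.68), TRIB3 and SESN2 (0.59), DDIT3 and SESN2 (0.56), DDIT3 and TRIB3 (0.54) and ATF4 and DDIT3 (0.53), all of them outside the serine enzymes.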

How the data were processed

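Per the labels' protocols, which describe papain dissociation of organoids, cells were fixed and given barcodes with a split-pool kit (SplitBio) from polyA RNA. The submitters' processing notes name Salmon 1.7.0, alevin, Seurat 4.1.1 and hg38, and the annotation is not given in the sources used here. The authors deposited 1 matrix of estimated counts, of which 54.3% of entries are whole numbers, with at least 1006 genes per cell. For each tag, the estimated counts of its cells were added up and rounded to whole numbers. Low genes were dropped by filterByExpr, TMM factors were computed, and robust quasi-likelihood fits were made in R 4.3.3 by edgeR 4.0.16, with treatment as a covariate where arrangements were compared. DESeq2 1.42.0, limma 3.58.1, other scalings, filters and cell sets were alternatives. CHAC1 passed the filter in 9 of 14 comparisons and the other 8 genes in all 14.

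The members and lists were chosen with earlier results of these data known. All 9 members are named, and of the pathway genes up to 8 per comparison that were called and did not overlap, by size of change. For likeness up to 3 genes per member qualified, and unnamed identifiers are not printed. Cells were clustered (Leiden 0.10.2, resolution 0.8, seed 0) without members and pathway genes. A marker counted at 2-fold or more and in 10% of cells, and a name needed 3 markers and 40% of its list. Doublets (5855 cells, 13.4%) were kept. Classes were tested where a tag held at least 20 cells. On simulated counts for 3DMono against 2DMono (19927 genes), 87.1% of changes of 1 on the log2 scale and 8.08% of those of 0.5 were recovered with 3 false calls. For AcCoc in 2DCocu (20713 genes) the shares were 81.8% and 21.4%, with 5 false calls. In these simulations 192 and 197 of the genes tested were changed, and all genes shared 1 spread. The real fits called 38.8% and 6.09% of genes, with a spread of each gene's own, so the shares do not carry over to them.

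In 3DFusi all same-numbered tags of different treatments correlated in their deviations from the group means (0.138 to 0.566). Differently numbered tags also did where both were numbered 1 or 2, or both 3 or 4 (0.171 to 0.323). AcCoc 3, for example, had 0.323 with Vehic 4 and 0.164 with Vehic 3. Between those 2 sets all values were below 0 (-0.511 to -0.0178). Pairing by single number can thus not be told apart from the split into sets. In 2DCocu (-0.297 to 0.112) and 2DMono (-0.1295 to 0.118) same-numbered tags had both signs. In 3DMono all were positive (0.0620 to 0.237). With 2 tags a group, as in 2DMono and 3DMono, the deviations mirror each other, so pairing cannot be judged there.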

Additional observations from a re-analysis of the deposited data

Results flagged for a closer look

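TRIB3 in the 2DCocu tag AcCoc 4 was 9.99 CPM, far above the other 3 AcCoc tags, which lay between 7.27 and 7.52 CPM. Divided by the range of the 4 tags, its gap to the nearest was 0.908, beyond Dixon's critical value of 0.829. Such a gap was looked for in 36 sets of tags, and chance gives about 1 in 20.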

How the results depend on the processing

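Counts of members called are given in place of the 7, 6, 5 and 0 of the 4 arrangement comparisons in the order of the report. With Vehic tags alone they were 0, 3, 2 and 0, with fewer tags in each fit. Beside them stood 3248 of 22508, 6023 of 21332, 3331 of 21204 and 5 of 22513 genes. For 3DMono compared with 2DMono, limma with a replicate block on the tag number (estimated correlation) called 4 and limma without the block also 4, the cause not being tested. Without doublets 5 were called there. For 2DCocu compared with 2DMono, 4 were called with total counts (beside 5848 of 20916 genes) and 4 without the filter (6952 of 43406). For 3DFusi compared with 2DCocu, 3 were called without doublets and 3 with the replicate block, where DDIT3 (limma adjusted p = 0.0528), SESN2 (0.0719) and PSAT1 (0.116) were lost. Limma without the block called 5, beside 10266 of 20930 genes. For 3DFusi compared with 3DMono, DESeq2 called 1, beside 1550 of 23145 genes. The tags numbered 3 and 4 alone gave 4, beside 4112 of 22798 genes. Those numbered 1 alone, with fewer tags, gave 0, beside 44 of 23402. SESN2 in 3DFusi compared with 2DCocu reversed to -0.12 with the tags numbered 1 and 2 alone. For AcCoc in 2DCocu, in place of 2, 1 member was called without a filter (beside 1263 of 42549 genes) and 0 with total counts (1025 of 21032). With the replicate block it was 0 (945 of 21032) and in 1 fit over 4 arrangements 0 (0 of 24803). The cause was not tested. For AcMor in 2DCocu DESeq2 called 1 (beside 685 of 21032 genes) and the fit without doublets 2 (beside 1254 of 20156). The share of higher calls over all genes was 70.2% by TMM and 42% by total counts there. For the flat protocols total counts gave 5 (beside 11173 of 25637 genes) in place of 3 (9991 of 25637). Within classes 1 member (PHGDH, AcCoc in 2DCocu) was called for a treatment by total counts. Within classes the comparisons of 3D with 2D gave 10 calls, and 8, 13, 12, 13 and 12 with at least 50 cells, without doublets, at Leiden resolution 0.4, with total counts and with the replicate block. In the other comparisons of arrangements and of treatments over whole tags, the block left the count of members called as it was, and the protocol comparisons were not run with it. Leaving out each tag gave 4 to 7, 5 to 6, 4 to 5 and 0 to 2 members in the arrangement comparisons, 0 to 1 for AcCoc in 2DCocu, 0 to 0 in the other treatment comparisons and for the 3D protocols, and 0 to 3 for the flat protocols. Fold changes of members were followed under the other alternatives only where the main fit called them or came near the threshold. Of 302 such values 241 kept their direction and side of the threshold, 46 lost the call, 14 gained it and 1 reversed. Members further from the threshold are not counted in this. For the alternative class calls and the fits without 1 tag, the shares of all genes are not printed, so those counts alone do not set the members apart. Alternatives with limma, total counts, cluster 15, a block within classes or tags by number were added after seeing the data. CHAC1 had 987 counts over all cells, which limits its precision.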
